A study of Mus musculus with 4 samples.

Results

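The genes described are those of the insulin-like growth factor (IGF) system with the receptors for growth hormone and prolactin: Igf1, the receptors Igf1r and Igf2r, the binding proteins Igfbp2 to Igfbp6, Ghr and Prlr. They were chosen by name from the list of 10, taking for each gene the probe set that carries its symbol alone. A probe set was found for 9 of the 10, with 1 probe set each, out of 19938 genes measured, and Prlr was not analysed here. RNA came from whole testes of male mice, 2 samples labelled Lhcgr KO and 2 labelled control WT, which lack or carry the receptor for luteinizing hormone. All 4 samples came from mice given busulfan at 44 mg/kg and killed 4 weeks later, so the controls, too, had been exposed to this alkylating drug, which kills most germ cells. The labels give no strain, age or allele, and do not say whether the replicates were separate animals, so p-values cover only how these samples spread, and that spread may be technical. In whole testis RNA, fewer cells of a type and less RNA per cell cannot be told apart.

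IGF1 is a secreted growth factor that signals through the receptor tyrosine kinase IGF1R to the PI3 kinase and MAP kinase pathways. The IGF binding proteins carry IGFs in tissue fluid, delay their breakdown and keep them from the receptor, and proteases such as PAPP-A release the ligand by cutting them. Growth hormone and prolactin act through related cytokine receptors, the kinase JAK2 and the transcription factors STAT5A and STAT5B, and growth hormone drives Igf1 transcription in many tissues. In the testis, Leydig cells, Sertoli cells, peritubular cells and macrophages express parts of this system, and IGF1 supports the maturation of Leydig cells.

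None of the 9 measured genes passed the test between genotypes (limma, Benjamini-Hochberg adjusted p under 0.05 over all genes), and 1 of them, Igf1, had an unadjusted p under 0.05. Over all genes, 3.1% passed the adjusted threshold and 22.7% had an unadjusted p under 0.05. By sign, 5 of the 9 had higher and 4 lower means in the knockout, with a median log2 fold change of 0.02 against 0.07 over all genes. The ordinary pooled-variance test called 0 of all 19938 genes, so it says nothing on these 9. In all 9 the 2 control arrays differed from each other by more than the group means did. The share of all genes for which this holds was not counted. Over all genes the median gap between controls was 0.13 log2 units, and the median size of the change was 0.19. In the set, the gap between controls was widest for Igfbp5, Igfbp3 and Igf1.

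**Figure D1:**
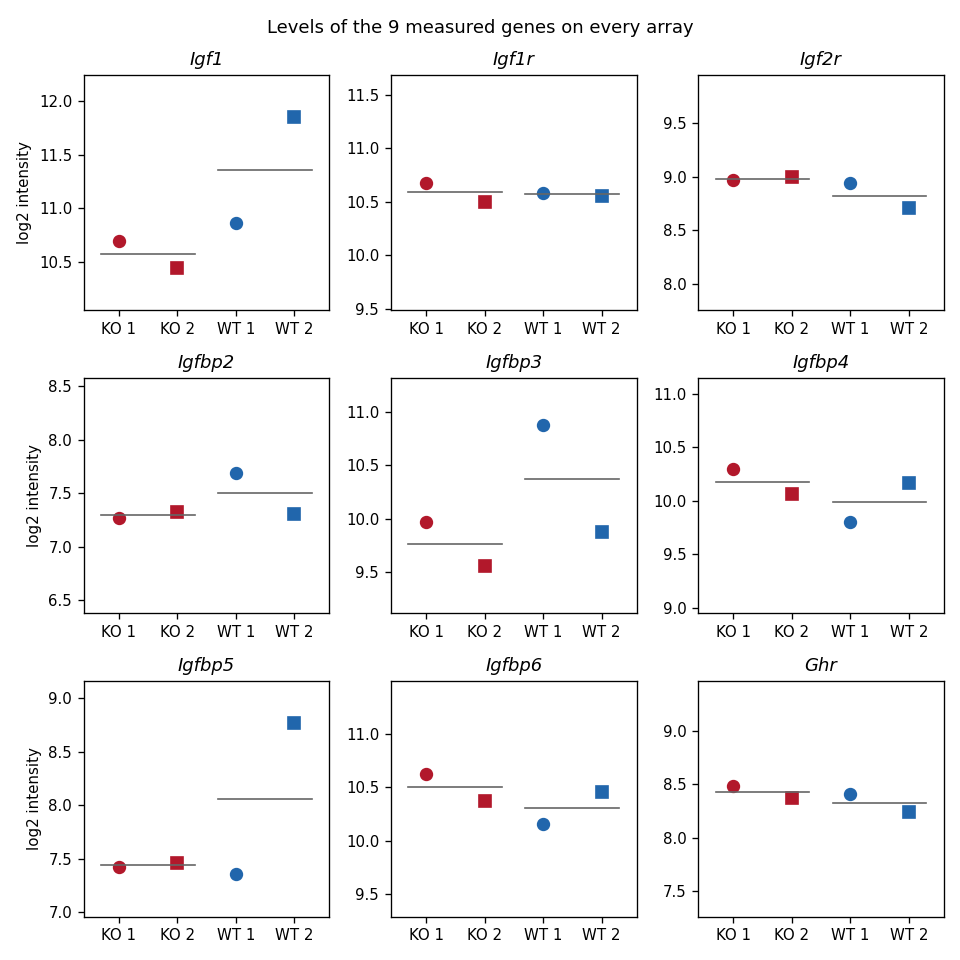
Log2 intensity of the 9 measured genes on each array, knockout in red and control in blue, replicate 1 as circles and replicate 2 as squares, with a line at each group mean and the same span of log2 units on every vertical axis. Igf1 and Igfbp5 stand high on control replicate 2 alone, Igfbp3 on control replicate 1 alone, and each of the other 6 genes spans at most 0.49 log2 units.

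Igf1, the ligand (probe set 10365559), measured 10.69 and 10.45 log2 intensity units on the knockout arrays, and 10.86 and 11.85 on control replicates 1 and 2. Both knockout values lay below both control values, but control replicate 1 was closer to the knockout arrays than to its own replicate. The group means were 10.57 ± 0.17 (SD, n = 2) in the knockout and 11.35 ± 0.70 in the controls, which is -0.79 ± 0.30 as log2 fold change, knockout over control (SE; adjusted p = 0.197, limma). As a ratio, control over knockout was 1.72-fold, and its 95% confidence interval reached from 1.05 to 2.84. Of all genes, 22.4% were lower on both knockout arrays, so this order alone is common in these data. Without control replicate 1 the change was -1.28 (adjusted p = 0.00298), and without control replicate 2 it was -0.29 (adjusted p = 0.487). Over all alternatives its adjusted p reached up to 0.537. The antisense transcript Igf1os, looked at after its values were seen, measured between 5.54 and 6.06, and its groups overlapped. These are weak signals, at intensities of 47 to 67 where the array medians were 198 to 215. Its order over the arrays is therefore not set against that of Igf1.

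Macrophages are a known source of IGF1, and macrophage markers were lower in the knockout on these arrays. Of 12 measured macrophage markers, 6 fell and none rose, where 2.14% of all genes fell. These calls did not hold with either knockout array left out. All 12 were higher on both control arrays, an order seen in 22.4% of all genes. Their median log2 fold change was -0.85. Their summed intensity was 5072 and 5314 in the knockout against 8874 and 11080 in the controls. Each of the 12 was highest on control replicate 2, and the share of all genes highest there was not counted. Markers of epididymal epithelium also set control replicate 2 apart, summing to 7139 there and to 1003, 1058 and 1044 on knockout replicates 1 and 2 and control replicate 1. On that array 7 of 10 measured epididymal markers exceeded the other 3 arrays by over 1 log2 unit, a share not counted over all genes. Epcam alone of the 10 passed the test. Without control replicate 1, 7 of these markers were called lower, and without knockout replicate 1 or 2 none was. The part of either cell type in the Igf1 difference was not tested. The 3 genes closest to Igf1 over the 4 arrays, by Euclidean distance of centred log2 values, were Agrn, an extracellular heparan sulfate proteoglycan (distance 0.11), the unnamed locus 9530002B09Rik (0.12) and Ms4a6c, a membrane protein of myeloid cells (0.12).

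Igf1r, the receptor tyrosine kinase for IGF1 (probe set 10554094), showed hardly any difference. It measured 10.68 and 10.50 in the knockout and 10.58 and 10.56 in the controls, so that the knockout values lay on either side of the controls. The log2 fold change was 0.02 ± 0.12 (adjusted p = 0.938), with a 95% confidence interval of -0.27 to 0.30, or 0.831-fold to 1.23-fold. Its sign turned, to -0.05, when each array was centred on its median. Igf2r, the mannose 6-phosphate receptor that takes up IGF2 for degradation (probe set 10447799), measured 8.964 and 8.995 in the knockout and 8.94 and 8.71 in the controls. It is the 1 gene of the set that was higher on both knockout arrays, an order that 36.8% of all genes share. Its log2 fold change was 0.16 ± 0.13 (adjusted p = 0.451, interval -0.14 to 0.46), smaller than the gap of 0.23 between the controls.

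The 5 binding proteins varied in different ways. Igfbp3, the main carrier of IGFs in blood (probe set 10384223), measured 9.97 and 9.56 in the knockout, and 10.87 and 9.87 on control replicates 1 and 2. Control replicate 2 fell between the knockout values, so the groups overlapped. The log2 fold change was -0.61 ± 0.32 (adjusted p = 0.289), with a 95% confidence interval of -1.36 to 0.15. It was -1.11 (adjusted p = 0.0183) without control replicate 2 and -0.11 (adjusted p = 0.761) without control replicate 1. Adult Leydig cell markers also differed between the control arrays in this direction, and 10 of 12 were highest on control replicate 1. The share of all genes highest on that array was not counted. The summed intensity of these markers was 28552 on control replicate 1 and 17514 on control replicate 2, against 7860 and 7499 in the knockout. Of these 12 markers 6 fell and none rose, where 2.14% of all genes fell. Fewer of them passed with either knockout array left out. The weakest value, an intensity of 19 for Sult1e1 on knockout replicate 2, lay near the array minimum of 16. Of the 12, 9 were lower on both knockout arrays, an order seen in 22.4% of all genes. Nr5a1, Hsd11b1 and Scarb1, named after their values were seen, overlapped between the groups, as Igfbp3 did. The 3 called markers with the largest changes were Hsd3b6, Sult1e1 and Ptgds. On control replicates 1 and 2, Hsd3b6 measured 12.21 and 12.32, Sult1e1 10.96 and 8.14, and Ptgds 11.37 and 9.30. The part of Leydig cells in the Igfbp3 values was not tested. The 3 genes closest to Igfbp3 over the arrays, a search added after its values were seen, were Ms4a10, the sarcosine dehydrogenase Sardh and the quinone reductase Nqo1, at distances of 0.14, 0.21 and 0.21.

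Igfbp5, a binding protein that also attaches to extracellular matrix (probe set 10355500), measured 7.42 and 7.46 in the knockout, 7.35 on control replicate 1 and 8.76 on control replicate 2. Thus 3 of the 4 arrays lay within about 0.1 log2 unit and a single control array stood above them. The fitted change of -0.62 ± 0.40 (adjusted p = 0.367) rested on that array: it was 0.09 (adjusted p = 0.828) without control replicate 2 and -1.32 (adjusted p = 0.00146) without control replicate 1. The gap of 1.41 log2 units between the controls was among the widest measured, as 0.617% of all genes had one as large. For Igf1 and Igfbp3, with gaps of 0.99 and 1.001, these shares were 1.09% and 1.06%. The array that was high for Igfbp5 is the one with high epididymal markers, whose part was not tested. The 3 closest genes, added in the same way, were the cytochrome P450 gene Cyp2j13, the epithelial transcription factor gene Tfcp2l1 and Cds1, a CDP-diacylglycerol synthase, at distances of 0.02, 0.03 and 0.05. Each of them was high on control replicate 2 alone, which follows from choosing the profiles nearest to that of Igfbp5.

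**Figure D2:**
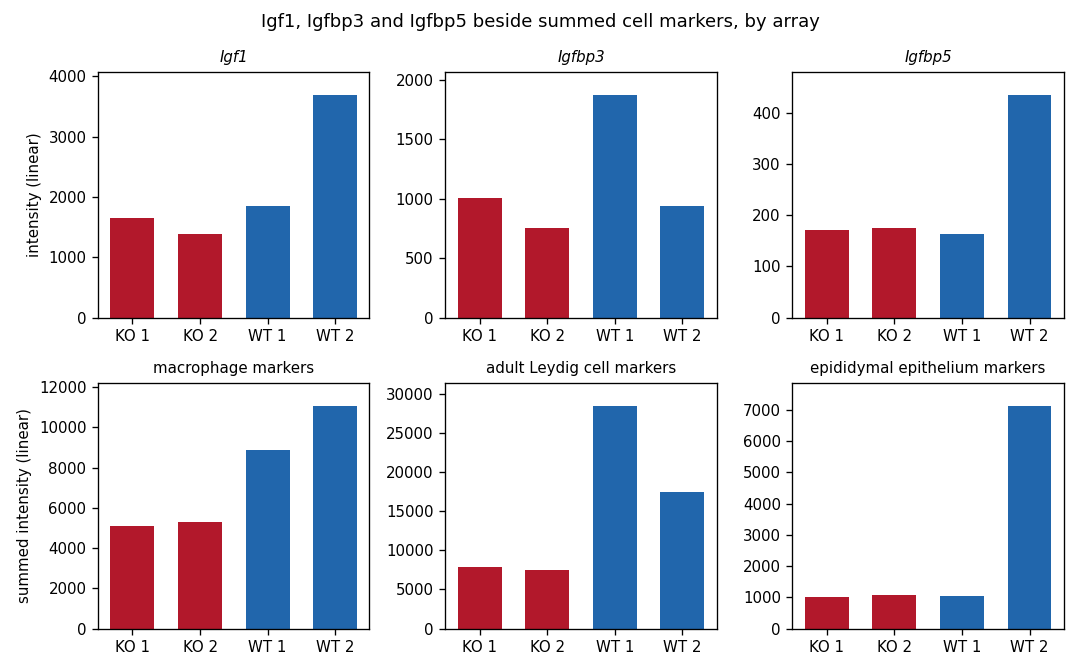
Linear intensity of Igf1, Igfbp3 and Igfbp5 on each array (upper bars) above the summed linear intensity of macrophage, adult Leydig cell and epididymal epithelium markers (lower bars), knockout in red and control in blue. Igfbp5 and the epididymal sum are high on control replicate 2 alone, while the macrophage and Leydig sums are higher on both control arrays than in the knockout.

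The remaining binding proteins differed little. Igfbp2 (probe set 10347277), the neighbour of Igfbp5 on chromosome 1, did not share its pattern. It measured 7.26 and 7.32 in the knockout, 7.69 on control replicate 1 and 7.31 on control replicate 2, so its high array was the other control. Its log2 fold change was -0.21 ± 0.15 (adjusted p = 0.416). Igfbp4, a carrier that PAPP-A cuts (probe set 10381096), measured 10.29 and 10.07 in the knockout and 9.80 and 10.17 in the controls. Igfbp6, which binds IGF2 more tightly than IGF1 (probe set 10427125), measured 10.62 and 10.37 in the knockout and 10.16 and 10.45 in the controls. Both were lowest on control replicate 1, and their groups overlapped. Their log2 fold changes were alike, 0.19 ± 0.16 (adjusted p = 0.465) for Igfbp4 and 0.19 ± 0.15 (adjusted p = 0.448) for Igfbp6. The intervals reached from -0.19 to 0.58 and from -0.17 to 0.55, so that rises above 1.49-fold for Igfbp4 and 1.47-fold for Igfbp6 lie outside them.

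Ghr, the growth hormone receptor (probe set 10427402), measured 8.48 and 8.37 in the knockout and 8.41 and 8.25 in the controls, and the groups overlapped. Its log2 fold change was 0.10 ± 0.12 (adjusted p = 0.624), with an interval of -0.19 to 0.39, or 0.876-fold to 1.31-fold. No value can be given for Prlr, the prolactin receptor, whose gene lies on chromosome 15 as does Ghr.

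Across the set, the control arrays differed more than the knockout arrays in 8 of the 9 genes, Igf1r being the exception. Over all genes this held for 48.3%. The median gap between the controls was 0.37 log2 units in the set against 0.13 over all genes, and between the knockout arrays it was 0.18 against 0.14. In 7 of the 9 genes the knockout and control values overlapped, while the groups did not overlap in 59.2% of all genes. The median size of the change between genotypes was 0.19 in the set and 0.19 over all genes.

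**Figure D3:**
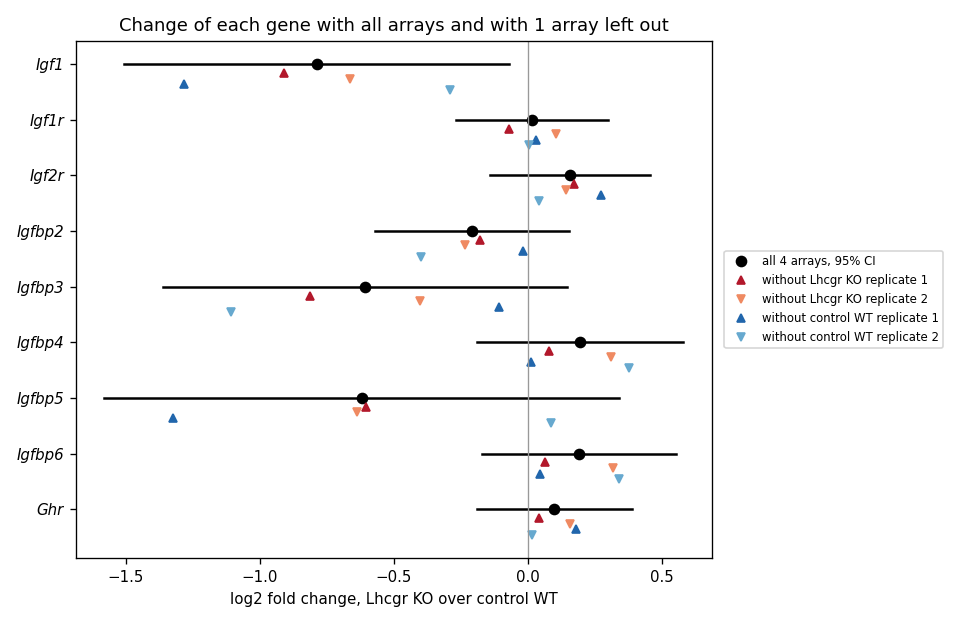
Log2 fold change, knockout over control, of the 9 genes with all arrays (black points, bars giving the 95% confidence interval) and with each array left out in turn (triangles). For each gene the values without either control array lie apart, by arithmetic, by the gap between the control arrays. This gap is about 1 log2 unit or more for Igf1, Igfbp3 and Igfbp5, and Igfbp5 turns from -1.32 to 0.09.

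Leaving out control replicate 1 gave 2 calls in the set, Igf1 and Igfbp5, both lower in the knockout, where 3.64% of all genes were called lower. Leaving out control replicate 2 gave 1 call, Igfbp3, also lower, where 2.26% of all genes were called lower. No gene of the set was called in both, and each of these fits compares the knockout pair with a lone control sample that is assumed to vary like the others.

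The promoters of these 3 genes are shown because their values ran widest over the arrays, to set their sequence beside their differing patterns. Each is the 250 bases before the annotated start, from RefSeq on GRCm38.p6, written 5′ to 3′ along the gene, with matches to the searched motifs in capitals. The Igf1 window is chr10:87860861-87861110 on the plus strand, that of Igfbp3 chr11:7213924-7214173 on the minus strand and that of Igfbp5 chr1:72874866-72875115 on the minus strand.
Igf1: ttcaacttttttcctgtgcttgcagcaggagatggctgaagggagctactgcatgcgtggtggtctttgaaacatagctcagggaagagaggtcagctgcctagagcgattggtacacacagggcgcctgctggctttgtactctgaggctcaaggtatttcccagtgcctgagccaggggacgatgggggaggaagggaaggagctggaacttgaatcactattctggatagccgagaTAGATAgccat
Igfbp3: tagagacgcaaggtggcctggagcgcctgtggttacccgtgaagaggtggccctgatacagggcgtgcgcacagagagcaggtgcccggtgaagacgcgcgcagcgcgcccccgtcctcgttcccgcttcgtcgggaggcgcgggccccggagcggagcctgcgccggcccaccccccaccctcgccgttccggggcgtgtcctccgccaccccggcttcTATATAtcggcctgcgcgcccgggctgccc
Igfbp5: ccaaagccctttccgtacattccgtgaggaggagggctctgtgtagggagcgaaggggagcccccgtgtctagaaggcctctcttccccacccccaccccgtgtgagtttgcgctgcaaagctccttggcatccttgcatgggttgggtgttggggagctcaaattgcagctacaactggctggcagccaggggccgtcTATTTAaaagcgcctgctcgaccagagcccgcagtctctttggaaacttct
The motifs searched on both strands were TTCNNNGAA (STAT5), AGAACA (core of androgen receptor sites), TGACGTCA (cyclic AMP response element), the TATA box motif TATAAA, the GC box motif GGGCGG and, added after the windows were read, the looser letters TATNTA. Only the last had a match in these 3 windows, 1 in each, and no matches overlapped. Its first base lay 11 bases before the start in Igf1 (on the opposite strand), 30 in Igfbp3 and 51 in Igfbp5, and 25.1% of all 32851 windows hold it. The GC content was 52.8% for Igf1, 73.2% for Igfbp3 and 58.8% for Igfbp5, against a median of 52.4% over all windows. All 10 genes of the set, with 14 windows in all, are in this table. TTCNNNGAA was found in 1 of the 14, a window of Prlr, against 7.02% of all windows, and AGAACA in 2, of Igfbp2 and Prlr, against 16.1%. TGACGTCA was found in none of the 14, against 1.55% of all windows. TATAAA was found in 3 (12.4% of all windows) and GGGCGG in 4 (32.7%). TATNTA, chosen after the windows were read, was found in 8 of the 14, against 25.1% of all windows. Besides Igf1, Igfbp3 and Igfbp5, these were windows of Ghr, Igfbp6 and Prlr. These are matches of letters and show no binding.

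Other genes of the pathway did change. Of 14 measured ligands, carriers, proteases and related genes outside the set, 3 rose and none fell, where 0.963% of all genes rose and 2.14% fell. Their median log2 fold change was 0.26, against 0.07 over all genes, and 9 of the 14 were higher on both knockout arrays, an order seen in 36.8% of all genes. Ins2, an insulin gene next to Igf2 in the genome (probe set 10569358), measured 9.55 and 9.47 in the knockout against 7.849 and 7.996 in the controls. It was 3.003-fold higher (95% confidence interval 2.47 to 3.65, log2 fold change 1.59 ± 0.12, adjusted p = 0.00305), and its adjusted p was 0.0835 and 0.0724 without knockout replicate 1 and 2. Ins1, a close copy, was not analysed here, and probes of such genes can share signal. Igf2 itself, the second IGF ligand, was named after its values were seen. It measured 10.32 and 10.43 in the knockout and 10.37 and 9.52 in the controls, a log2 difference of 0.43 ± 0.26 (adjusted p = 0.339). It was low on control replicate 2 alone, the array on which Igf1 was high, and its change was 0.0042 (adjusted p = 0.993) without that array and 0.86 (adjusted p = 0.0171) without control replicate 1.

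Both stanniocalcin genes rose. Stanniocalcins are secreted glycoproteins that inhibit PAPP-A, the protease that frees IGF from IGFBP4. Stc1 (probe set 10416181) measured 8.82 and 8.99 in the knockout against 7.77 and 7.12 in the controls, a 2.75-fold difference (interval 1.92 to 3.92, adjusted p = 0.0217). Stc2 (probe set 10384961) measured 8.44 and 8.39 against 7.43 and 7.71, a 1.80-fold difference (interval 1.44 to 2.24, adjusted p = 0.0273). Pappa, which encodes PAPP-A, measured 10.99 and 10.68 against 9.89 and 10.37, and did not pass the test (log2 fold change 0.71 ± 0.19, adjusted p = 0.112), though both knockout values were the higher. It passed without control replicate 2 (0.95, adjusted p = 0.0253), and its adjusted p reached 0.422 under the other alternatives. Igfbp7, a related secreted protein with low affinity for IGFs, differed by -0.08 ± 0.12 on the log2 scale (adjusted p = 0.713). Neither stanniocalcin passed without knockout replicate 1 (adjusted p = 0.179 for Stc1 and 0.187 for Stc2), without replicate 2 (0.230 and 0.2002) or with 16 subtracted from every intensity (0.0887 and 0.0812).

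**Figure D4:**
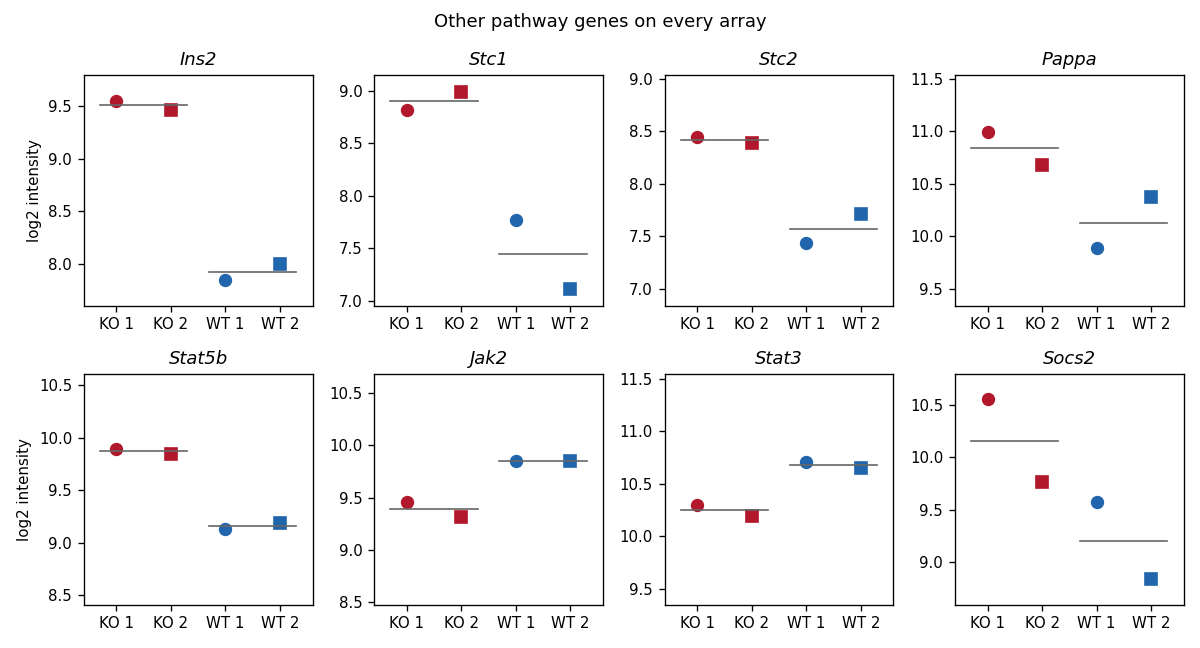
Log2 intensity of 8 pathway genes outside the set on each array, knockout in red and control in blue, with lines at the group means and the same span on every vertical axis. The groups are apart in all 8, which were drawn with their values known, and in 59.2% of all genes. Igf2 and Cish, whose groups overlap, are not drawn. Ins2, Stc1, Stc2 and Stat5b pass the test while Pappa, Jak2, Stat3 and Socs2 do not.

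Of 16 genes of growth hormone and prolactin signalling, Stat5b rose and 15 did not pass the test, with a list median of 0.23. Stat5b (probe set 10391286), a transcription factor below both receptors, measured 9.89 and 9.85 in the knockout against 9.13 and 9.19 in the controls, a 1.64-fold difference (interval 1.37 to 1.97, adjusted p = 0.0251). It did not pass without knockout replicate 1 (adjusted p = 0.177), without replicate 2 (0.176) or with 16 subtracted (0.0700). Its close relative Stat5a differed by 0.34 ± 0.13 (log2, adjusted p = 0.206), and probes of such near-identical genes can share signal. The kinase gene Jak2 measured 9.46 and 9.31 against 9.84 and 9.85, and Stat3 measured 10.30 and 10.19 against 10.71 and 10.65. Both were lower on both knockout arrays without passing the test (-0.46 ± 0.12, adjusted p = 0.0975, and -0.43 ± 0.11, adjusted p = 0.105). Socs2, a feedback inhibitor that STAT5 induces, ran widely within both groups, from 9.76 to 10.55 in the knockout and from 8.84 to 9.57 in the controls (log2 fold change 0.95 ± 0.31, adjusted p = 0.159). It passed without control replicate 1 (1.32, adjusted p = 0.0299) and had adjusted p-values from 0.0185 to 0.481 over all alternatives. Another such inhibitor, Cish, was at 9.71 on knockout replicate 1 and at 9.10 on each of the other 3 arrays (0.31 ± 0.20, adjusted p = 0.366). Jak2, Stat3, Stat5a, Socs2 and Cish, like Pappa and Igfbp7, were named after their values were seen.

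Of 29 measured genes that carry the signal from the insulin and IGF1 receptors, none passed the limma test. An unadjusted limma p under 0.05 was found for 3 of the 29, against 22.7% of all genes. The list median was -0.02. The ordinary test called 0 of all genes, so it says nothing on these 29. The lowest p-values belonged to 2 adaptors. Grb14, which inhibits the insulin receptor, measured 10.42 and 10.35 in the knockout against 9.99 and 9.73 in the controls (0.52 ± 0.13, adjusted p = 0.0973). Irs2, a docking protein of both receptors, differed by 0.35 ± 0.13 (log2, adjusted p = 0.194).

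Median intensities over 28856 probe sets ran from 198 to 215 on the 4 arrays. Other marker lists bear on what the samples held. Among them, 1 of 12 Sertoli cell markers (Amh) and 1 of 10 endothelial markers (Sox18) rose, where 0.963% of all genes rose. None of 8 peritubular myoid, 10 stromal fibroblast, 8 adipocyte and 12 germ cell markers passed the limma test. In that order, 5, 3, 4 and 2 of them had an unadjusted limma p under 0.05, where 22.7% of all genes had one. Neither Amh nor Sox18 passed without knockout replicate 1 or 2, or with 16 subtracted. Without control replicate 1, Amh did not pass (adjusted p = 0.0628) and 3 endothelial markers did, 2 higher and 1 lower, and 1 adipocyte and 1 germ cell marker were called higher. Without control replicate 2, 1 germ cell marker was called lower. The sums of Sertoli cell markers ran from 38802 to 41618 on the 4 arrays, and those of stromal markers from 13076 to 14823. Endothelial sums were 3270 and 3243 in the knockout against 2805 and 2719 in the controls. Adipocyte sums were 1293 and 1462 against 1107 and 1069, and myoid sums 8970 and 7256 against 6904 and 6856. Germ cell sums were 2385 and 2172 against 2795 and 1858. The targeted gene itself was not analysed here, which leaves the genotype labels without that check. Without knockout replicate 1 or 2, only 18 or 23 of all genes were called. Precision is limited throughout by the small number of arrays.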

How the data were processed

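The authors deposited 1 linear intensity per probe set for each of 4 Affymetrix 1-colour arrays. Per the submitters' processing notes the build was mm9. How probes were summarized, background-corrected and normalized was not stated in the labels. The minimum was 16 on every array, as if this amount had been added, which would shrink the folds of weak genes. No detection calls were used. Of 28856 probe sets, 21789 carry 1 gene symbol and stand for 19938 genes. The probe set with the highest mean was used, and no filter on low values was set. RefSeq on GRCm38.p6 gave promoters and gene order.

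Log2 values were fitted with limma 3.58.1 in R 4.3.3 (lmFit, eBayes), with p-values adjusted by Benjamini-Hochberg over all genes at 0.05 and checked on simulated data. The set, the pathway and marker lists and the tests were chosen with earlier results of these data known. The genes named are the whole set, up to 4 called genes per pathway list (the 2 of lowest p where none was called), up to 3 per marker list, and the 3 closest to the member of lowest p. Further genes are marked as named after their values were seen. An exact permutation test of 2 against 2 arrays cannot reach the threshold and was not run. Alternatives varied normalization, filters, probe sets, offsets, variance prior, arrays, replicate block and threshold. Where 16 was subtracted, any result under 16 was set to 16.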

Additional observations from a re-analysis of the deposited data

How the results depend on the processing

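With 2 arrays per group, 1 array can decide a value. None of the 9 genes was called under any alternative that kept all 4 arrays, and leaving out 1 array gave 0 to 2 calls. Igf1r turned to -0.0484 after median centring and Igf1os to -0.0664 after quantile normalization. With 1 array left out, the log2 fold change ran from -0.0716 to 0.105 for Igf1r, -1.32 to 0.0864 for Igfbp5, -0.184 to 0.338 for Igf1os, -0.969 to 0.0983 for Sardh, -1.30 to 0.0802 for Cyp2j13, -1.30 to 0.0984 for Tfcp2l1 and -1.37 to 0.0352 for Cds1. The 618 calls over all genes became 125 (25 higher, 100 lower) with 16 subtracted, 0 by the ordinary pooled-variance test with 4516 genes at an unadjusted limma p under 0.05, 1244 at adjusted p under 0.1, and 18 to 1039 with 1 array left out. The 3 calls among other IGF ligands, carriers and proteases became 1 with 16 subtracted, 0 by the ordinary test and 0 to 4 with 1 array left out. The 1 call in growth hormone and prolactin signalling became 0 with 16 subtracted, 0 by the ordinary test, 2 at adjusted p under 0.1 and 0 to 2 with 1 array left out. In insulin and IGF receptor signalling, 1 gene (Grb14) was called at adjusted p under 0.1. The cause of these shifts was not tested, except that the ordinary test has 2 residual degrees of freedom and the left-out fits have fewer arrays. With the replicate number as a block, 572 genes were called over all genes, none of the set, and 2 in growth hormone and prolactin signalling, Socs2 being added (adjusted p = 0.0185). Same-numbered arrays did not deviate together (correlation across genes 0.02), so the numbers were not taken to pair the samples.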
